A study of Homo sapiens with 4 samples.

Results

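Messenger RNA levels of 9 factors of nonsense-mediated decay and of the exon junction complex were examined in oral cancer cells with and without knockdown of the RNA-binding protein STAU1. The genes were UPF1, UPF2, UPF3B, SMG1, SMG5, SMG6, MAGOH, RBM8A and CASC3. They were picked by symbol from the 67008 genes of the count table. The rule used no expression value, but earlier results of these data were known when the genes were chosen. The control cells (Ctrl, 2 libraries) carried an shRNA against luciferase (shLuc), and the knockdown cells (shSTAU1, 2 libraries) carried an shRNA against STAU1. Both groups had a wild-type genotype by their labels and had been infected with virus to deliver the shRNA. The growth protocol names SAS, a human oral squamous carcinoma line, whereas the cell line field names C3H 10T1/2, a mouse fibroblast line. The organism is given as human and the cell type as an oral cancer line, so the libraries were treated as SAS. A single shRNA stands for the knockdown, and no label says that the libraries came from separate cultures, so the p-values measure the spread between these libraries, which may be technical.

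Nonsense-mediated decay removes mRNAs on which a ribosome terminates too early. UPF1, an RNA helicase, is recruited at termination and is activated when the kinase SMG1 phosphorylates it, a step that UPF2 and UPF3B promote by bridging UPF1 to the exon junction complex. Phosphorylated UPF1 attracts SMG6, an endonuclease that cuts the RNA, and SMG5, an adaptor that leads to deadenylation and decapping. The exon junction complex is deposited upstream of spliced junctions and marks where introns were removed. MAGOH and RBM8A (also called Y14) form a heterodimer in its core, and CASC3 (also called MLN51 or Barentsz) is a further core subunit that joins in the cytoplasm. STAU1 binds double-stranded RNA and can itself recruit UPF1 to an mRNA, a route known as Staufen-mediated decay. The mRNAs of several decay factors are also known substrates of nonsense-mediated decay.

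Gene-level read counts of TruSeq RNA Exome libraries were available, with 32206655 to 36301574 counts per library. The 9 genes held 0.134% to 0.162% of the counts of each library. Levels are given as CPM, counts scaled to a common library size after TMM normalization, which corrects for composition. Differences between the groups were tested by the quasi-likelihood method of edgeR over the 14303 genes that passed its filter on low counts, with Benjamini-Hochberg adjustment over all of them and a threshold of 0.05. All 9 genes passed that filter. In bulk RNA a lower level from fewer cells of one kind cannot be told apart from a lower level per cell. Replicate libraries varied beyond sampling noise, with a chi-square per degree of freedom of 25.2 in Ctrl and 60.0 in shSTAU1. Among the 9 genes, 9 were higher in replicate 2 than in replicate 1 in Ctrl and 8 in shSTAU1, against 49.7% and 49.4% of all tested genes. All 8 squamous epithelial marker genes passed the filter, with a summed level of 7512 and 7091 CPM in Ctrl and 11262 and 8619 CPM in shSTAU1. The keratin KRT5 held much of that sum and rose (log2 fold change 0.65, edgeR adjusted p = 0.0408), and the other 7 were not called by the same test. Of the 8, 6 had values above 0, the furthest being KRT14 (0.89, edgeR adjusted p = 0.112). The desmosomal cadherin DSG3 (-0.76, edgeR adjusted p = 0.0731) and the cadherin CDH1 (-0.29, edgeR adjusted p = 0.510) had values below 0. DESeq2 called 2 of the 8 as higher and 1 as lower, beside 5.40% and 4.73% of all tested genes. The 8 fibroblast markers summed to 17.9 and 22.8 CPM in Ctrl and to 11.1 and 10.2 CPM in shSTAU1. Most of this was the collagen gene COL1A1, which fell (527 and 663 counts in Ctrl, 273 and 221 in shSTAU1, edgeR adjusted p = 0.0360), while COL1A2 had 40 and 55 counts in Ctrl and 75 and 128 in shSTAU1 (edgeR adjusted p = 0.185). THY1 had 0 counts and COL3A1, DCN and LUM no more than 1 count per library. The 5 leukocyte markers summed to 0.268 and 0.214 CPM in Ctrl and to 1.15 and 0.736 CPM in shSTAU1. CD14 had 5 and 5 counts in Ctrl and 40 and 15 in shSTAU1 (edgeR adjusted p = 0.111), CD3E had 10 counts in shSTAU1 replicate 2 and 0 in the other libraries, and PTPRC had no more than 1 count per library. The marker genes without an edgeR call were chosen for naming after their values were seen. The part of these shifts in the results was not tested.

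The targeted gene was examined first. STAU1 had 8362 and 8218 counts in Ctrl but 1449 and 1467 counts in shSTAU1. It fell by 83.4%, which is -2.59 ± 0.13 (standard error) on the log2 scale, with an edgeR adjusted p of 0.00103. Its paralog STAU2, another double-stranded RNA-binding protein, had 490 and 506 counts in Ctrl and 487 and 576 counts in shSTAU1, with a log2 fold change of 0.01 (95% interval -0.42 to 0.45) whose sign depended on the scaling.

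Several of the 9 genes have close copies in the genome to which short reads could be assigned, and the similarity of the copies differs between genes. Coding sequences were read from GENCODE 29 on GRCh38, since the annotation release used by the authors is not given in the sources used here. MAGOH (chr1:53226892-53238610, minus strand) has a paralog, MAGOHB, on chromosome 12 that encodes a closely related exon junction protein. The aligned coding sequences differ at 60 of 441 bases (86.4% identity), the longest identical run is 38 bases, and no word of 50 bases of MAGOH occurs in MAGOHB. The last 120 coding bases of each, up to and including the stop codon, are shown to give the spacing of the differences that let a read be assigned, with the 17 differing bases in capitals.
MAGOH: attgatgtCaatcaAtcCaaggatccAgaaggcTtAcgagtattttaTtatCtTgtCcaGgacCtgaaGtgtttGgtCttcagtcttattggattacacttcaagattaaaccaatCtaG
MAGOHB: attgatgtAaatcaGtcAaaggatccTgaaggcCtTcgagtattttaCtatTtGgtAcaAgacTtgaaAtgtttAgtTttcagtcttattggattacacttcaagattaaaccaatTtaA

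RBM8A (chr1:145917714-145927678, minus strand) has a much closer copy, RBM8B, on chromosome 14. Only 7 of 525 aligned coding bases differ (98.7% identity), the longest identical run is 127 bases, and 48.5% of the 50-base words of RBM8A also occur in RBM8B. Within the coding sequence a 50-base read of MAGOH always crosses a base that tells it from MAGOHB, whereas a 50-base read of RBM8A crosses none at 48.5% of its possible positions. SMG1 (chr16:18804853-18926454, minus strand) shares 24.5% of the 50-base words of its coding sequence with at least 1 of 7 pseudogenes, SMG1P1 to SMG1P7, with 10.3% to 16.6% for each. UPF3B and its paralog UPF3A share none. Counts of RBM8A and SMG1 are therefore uncertain to the extent that such reads were split or dropped, and how the counting treated them is not given in the sources used here. Bases of these genes outside the coding sequence were not compared.

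Of the 9 genes, MAGOH rose and SMG5 fell after STAU1 knockdown, and the other 7 did not pass the threshold. Across all tested genes 2.60% passed the same threshold, 1.13% as higher and 1.48% as lower. The Ctrl and shSTAU1 libraries did not overlap for 6 of the 9 genes, 3 of them higher (UPF2, MAGOH and RBM8A) and 3 lower (SMG1, SMG5 and SMG6) in shSTAU1. Such separation was also seen for 56.6% of all tested genes, 28.5% as higher and 28.0% as lower, so the count of 6 is near the background. The median log2 fold change of the 9 genes was 0.02 and that of all tested genes was 0.01, while the median absolute log2 fold change was 0.30 in the former and 0.33 in the latter. In a fit that blocked on the replicate number, edgeR called 6 of the 9 genes, 3 higher (UPF2, MAGOH and RBM8A) and 3 lower (UPF1, SMG5 and SMG6), against 28.6% of all tested genes under that fit (15.4% higher and 13.1% lower). That a number marks a shared batch is stated in no label and not in the methods. With so few libraries, the blocked fit leaves little to measure the spread of each gene. Its p-values, here and below, therefore lean on the spread of other genes.

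**Figure D1:**
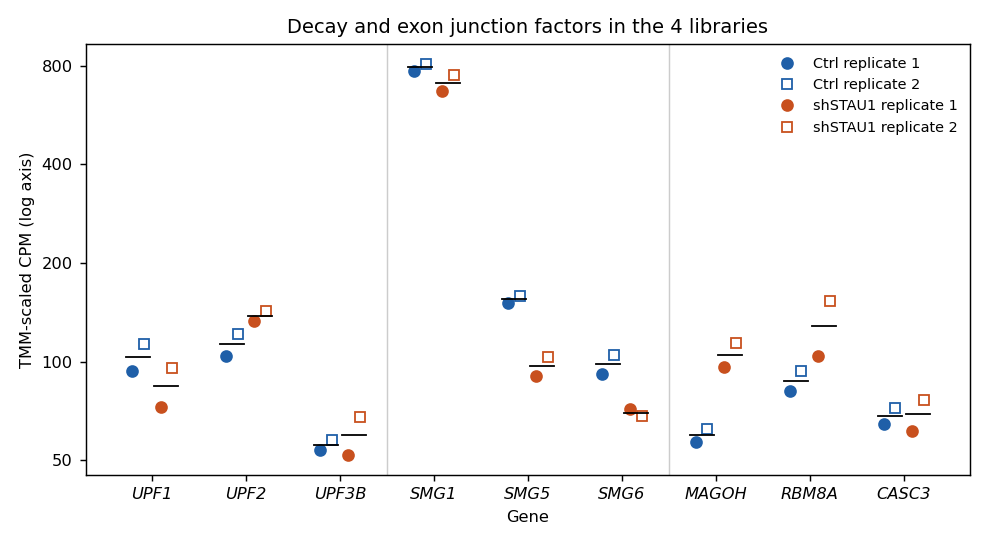
TMM-scaled CPM (log axis) of the 9 genes in each library, with Ctrl in blue, shSTAU1 in orange, replicate 1 as filled circles, replicate 2 as open squares and a bar at each group's mean. Both shSTAU1 libraries lie below both Ctrl libraries for SMG1, SMG5 and SMG6 and above them for UPF2, MAGOH and RBM8A, while the groups overlap for UPF1, UPF3B and CASC3.

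MAGOH showed the largest change of the 9. It had 57.0 and 62.2 CPM in Ctrl (1916 and 2038 counts) and 95.9 and 114 CPM in shSTAU1 (3340 and 4032 counts). Both knockdown libraries stood above both controls, and the lower of them exceeded the higher control by more than the gap within either group. The means were 59.6 ± 3.73 and 105 ± 12.8 CPM (SD, n = 2 each), a 1.76-fold rise (95% interval 1.39 to 2.23), or 0.82 ± 0.15 (standard error) on the log2 scale, with an edgeR adjusted p of 0.0366. A larger absolute log2 fold change was found for 15.2% of all tested genes. The call was lost without Ctrl replicate 1 (log2 fold change 0.74, edgeR adjusted p = 0.145) and without Ctrl replicate 2 (0.88, edgeR adjusted p = 0.0835). It was also lost when every gene with a read was tested (edgeR adjusted p = 0.103).

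Its paralog MAGOHB had 534 and 646 counts in Ctrl and 431 and 630 counts in shSTAU1, so its groups overlapped (log2 fold change -0.24, standard error 0.23, edgeR adjusted p = 0.561). The share of MAGOHB in the summed counts of both genes was 21.8% and 24.1% in Ctrl and 11.4% and 13.5% in shSTAU1. The lower control share had a Wilson 95% interval of 20.2% to 23.5% and the higher knockdown share one of 12.6% to 14.5%, which cover counting error only. The mean share was 22.9 ± 1.61% in Ctrl and 12.5 ± 1.47% in shSTAU1 (SD, n = 2 each), lower by 10.5 percentage points. Since the share holds the same MAGOH counts, its fall is not a result separate from the rise of MAGOH. The 2-sided exact permutation p was 0.333, the smallest that 2 libraries against 2 can give. Summed as 1 feature, MAGOH and MAGOHB had a log2 fold change of 0.63 and no longer passed the threshold (edgeR adjusted p = 0.0657).

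RBM8A, the partner of MAGOH in the heterodimer, had 81.4 and 93.3 CPM in Ctrl (2738 and 3056 counts) and 104 and 153 CPM in shSTAU1 (3616 and 5424 counts). The groups did not overlap, and shSTAU1 replicate 2 stood well above the other 3 libraries. The log2 fold change was 0.56 (standard error 0.20, 95% interval 0.10 to 1.02) and did not pass the threshold (edgeR adjusted p = 0.139). Without shSTAU1 replicate 2 it was 0.23, and without shSTAU1 replicate 1 it was 0.81, so the size rests on 1 library. RBM8B, the near-identical copy described above, had 307 and 323 counts in Ctrl and 430 and 687 counts in shSTAU1, with the same library the highest (log2 fold change 0.74, standard error 0.25, edgeR adjusted p = 0.131). The RBM8B share of the summed counts was 10.1% and 9.56% in Ctrl and 10.6% and 11.2% in shSTAU1, and summing the pair as 1 feature gave a log2 fold change of 0.58. Blocked on the replicate number, RBM8A passed the threshold (log2 fold change 0.54, edgeR adjusted p = 7.83e-05).

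CASC3 (chr17:40140318-40172183, plus strand) had 64.3 and 72.0 CPM in Ctrl and 61.5 and 76.4 CPM in shSTAU1. The shSTAU1 libraries fell on either side of the controls. The log2 fold change was 0.02 (standard error 0.16, edgeR adjusted p = 0.957), the 95% interval of -0.35 to 0.38 spanned a change of either sign, and the sign turned when TMM was replaced by library size and without some libraries. The difference between the exon junction subunits themselves was not tested.

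SMG5 (chr1:156249224-156282825, minus strand), the adaptor that binds phosphorylated UPF1, had 151 and 159 CPM in Ctrl (5080 and 5194 counts) and 90.5 and 103 CPM in shSTAU1 (3149 and 3653 counts). The lower Ctrl library exceeded the higher shSTAU1 library by far more than the gap within either group. The means were 155 ± 5.35 and 96.9 ± 9.13 CPM (SD, n = 2 each). SMG5 fell by 37.4%, or -0.68 ± 0.13 (standard error) on the log2 scale (95% interval -0.99 to -0.37), with an edgeR adjusted p of 0.0467. That value lies close to the threshold, and 20.8% of all tested genes had a larger absolute log2 fold change. The call was lost after a correction of each library for transcript length and GC content (log2 fold change -0.63, edgeR adjusted p = 0.0694), without Ctrl replicate 1 (-0.73, edgeR adjusted p = 0.119), without Ctrl replicate 2 (-0.64, edgeR adjusted p = 0.192) and when every gene with a read was tested (edgeR adjusted p = 0.116).

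SMG6 (chr17:2059839-2303771, minus strand), the endonuclease, had 91.6 and 105 CPM in Ctrl and 71.6 and 68.0 CPM in shSTAU1. The groups were apart, and SMG6 was the 1 gene of the 9 whose second shSTAU1 library was the lower. The log2 fold change was -0.49 (standard error 0.14, 95% interval -0.81 to -0.18) and did not pass the threshold (edgeR adjusted p = 0.0852). It passed with DESeq2 (adjusted p = 0.0399) and when blocked on the replicate number (edgeR adjusted p = 0.000457). With 1 library left out the log2 fold change ran from -0.60 to -0.39. HIC1 overlaps 22.9% of the exon bases of SMG6 on the opposite strand and had 35 to 67 counts per library, against 2403 to 3433 counts of SMG6. Whether reads were counted by strand is not given in the sources used here.

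**Figure D2:**
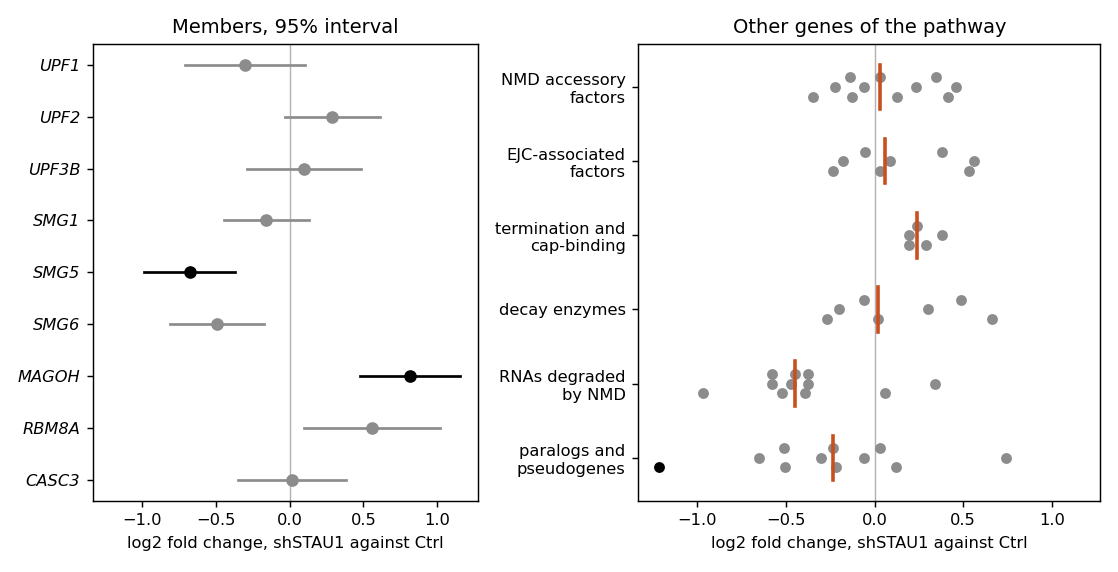
Left, log2 fold change of shSTAU1 against Ctrl with its 95% interval for the 9 genes (edgeR), where black marks an adjusted p under 0.05. Right, the log2 fold change of each tested gene of 6 lists of related genes, where the orange line is the list's median and black again marks an adjusted p under 0.05. MAGOH (0.82) and SMG5 (-0.68) are black on the left, and SMG1P5 (-1.21) is black on the right.

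SMG1, the kinase that phosphorylates UPF1, had the highest counts of the 9, with 25812 and 26567 in Ctrl and 23265 and 26421 in shSTAU1. After TMM scaling this was 768 and 811 CPM in Ctrl and 668 and 748 CPM in shSTAU1. The shSTAU1 libraries lay just below the controls, by less than the gap between the knockdown libraries. The log2 fold change was -0.16 (standard error 0.12, 95% interval -0.45 to 0.13, edgeR adjusted p = 0.467), and it changed sign to 0.05 after the correction for transcript length and GC content.

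The 7 SMG1 pseudogenes together took 17.8% and 19.9% of the summed counts of SMG1 and pseudogenes in Ctrl and 16.5% and 15.1% in shSTAU1. This was lower by 3.07 percentage points, with the groups apart and a 2-sided exact permutation p of 0.333, the smallest possible. SMG1P5 had 956 and 828 counts in Ctrl and 384 and 428 counts in shSTAU1 and was the 1 pseudogene to pass the threshold (log2 fold change -1.21, standard error 0.18, edgeR adjusted p = 0.0328). It fell by 56.9%, and the call was lost without Ctrl replicate 1 (edgeR adjusted p = 0.0540) and when every gene with a read was tested (edgeR adjusted p = 0.0988). SMG1P6 had a log2 fold change of -0.65, SMG1P4 of -0.51, SMG1P2 of -0.50, SMG1P3 of -0.30, SMG1P7 of -0.22 and SMG1P1 of 0.12, and edgeR's adjusted p of these 6 ran from 0.0877 to 0.807. Over all 11 paralogs and pseudogenes listed, 1 was called lower and 0 higher, beside 1.48% and 1.13% of all tested genes. The median log2 fold change was -0.24. Of the 11, 7 were the SMG1 pseudogenes, which may share reads with SMG1. An unadjusted p under 0.05 (edgeR) was found for 5 of the 11 and for 24.5% of all tested genes. DESeq2 called 2 of them as lower, beside 10.1% of all tested genes in either direction and 4.73% as lower, and limma-voom called 1 as lower, beside 2.54% in either direction. Blocked on the replicate number, edgeR called 4 as lower and 1 as higher, beside 13.1% and 15.4% of all tested genes. Reads of SMG1P5 and SMG1 cannot be told apart over 16.0% of the 50-base words of the SMG1 coding sequence.

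**Figure D3:**
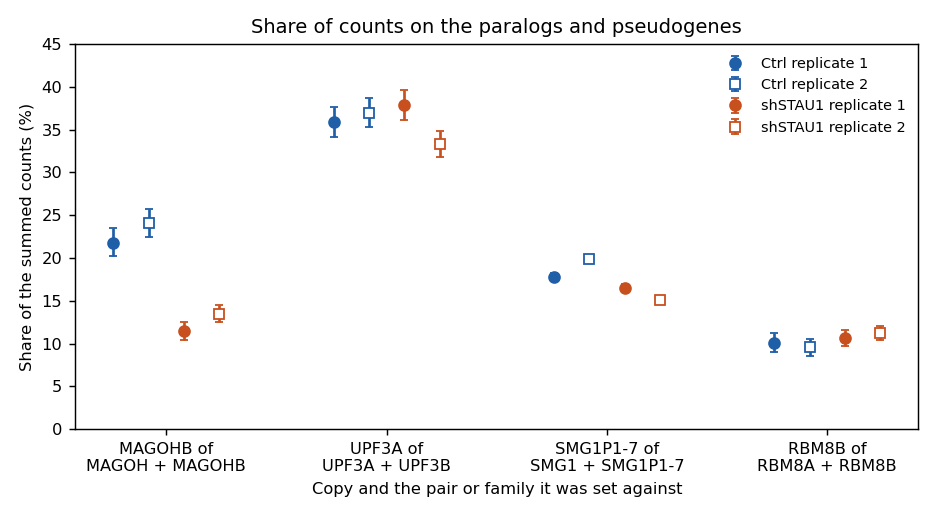
Share (%) of the summed counts that fell on the copy, for MAGOHB of MAGOH and MAGOHB, UPF3A of UPF3A and UPF3B, the SMG1 pseudogenes of SMG1 and pseudogenes, and RBM8B of RBM8A and RBM8B, in each of the 4 libraries with Wilson 95% intervals. The MAGOHB share is 21.8% and 24.1% in Ctrl and 11.4% and 13.5% in shSTAU1, the widest separation of the 4 shares.

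UPF1 (chr19:18831938-18868236, plus strand), the helicase that STAU1 also binds, had 93.7 and 113 CPM in Ctrl and 72.6 and 95.4 CPM in shSTAU1. The higher knockdown library lay just above the lower control, so the groups overlapped. Means were 104 ± 13.9 and 84.0 ± 16.2 CPM (SD, n = 2 each), with a log2 fold change of -0.30 (standard error 0.18, 95% interval -0.71 to 0.11, edgeR adjusted p = 0.325). Replicate 2 exceeded replicate 1 by 0.27 on the log2 scale in Ctrl and by 0.39 in shSTAU1, about as much as the groups differed. Blocked on the replicate number, the log2 fold change was -0.31 and passed the threshold (edgeR adjusted p = 0.0359), but with the length and GC correction added to the block it was -0.26 and did not (edgeR adjusted p = 0.114). Without shSTAU1 replicate 2 it was -0.53 (edgeR adjusted p = 0.0361). The value without shSTAU1 replicate 1 was -0.12.

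UPF2 (chr10:11920022-12043170, minus strand), the bridging factor, had 104 and 122 CPM in Ctrl and 133 and 143 CPM in shSTAU1. Both shSTAU1 libraries stood above both controls, though by less than the gap between the controls. The log2 fold change was 0.29 (standard error 0.14, 95% interval -0.03 to 0.61, edgeR adjusted p = 0.242), and when blocked on the replicate number it was also 0.29 and passed the threshold (edgeR adjusted p = 0.0433). UPF3B (chrX:119805311-119852998, minus strand), which ties UPF2 to the junction complex, had 53.8 and 57.7 CPM in Ctrl and 51.8 and 67.6 CPM in shSTAU1. The controls lay between the 2 knockdown libraries. The log2 fold change was 0.10 (standard error 0.17, 95% interval -0.29 to 0.48, edgeR adjusted p = 0.750) and was -0.13 without shSTAU1 replicate 2.

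UPF3A, the paralog of UPF3B and a weaker activator of decay, had 1013 and 1108 counts in Ctrl and 1099 and 1194 counts in shSTAU1. Its log2 fold change was 0.03 (standard error 0.15, edgeR adjusted p = 0.920), with a sign that turned when TMM was replaced by library size. The UPF3A share of the pair was 35.9% and 37.0% in Ctrl and 37.9% and 33.3% in shSTAU1, with the controls between the knockdown libraries (2-sided exact permutation p = 1).

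Compared between genes, levels need a length. The libraries were exome libraries, and differences in capture between genes were not corrected for. The order below is therefore one of counts per kilobase. Per kilobase of coding sequence, the order of the mean levels in Ctrl was RBM8A (167 CPM per kilobase), MAGOH (136), SMG1 (70.7), SMG5 (50.8), CASC3 (31.0), UPF1 (30.6), UPF3B (30.0), UPF2 (29.5) and SMG6 (22.8). The libraries of CASC3, UPF1, UPF3B and UPF2 overlapped their neighbours in that order, so these 4 were not separated. In shSTAU1 the order was RBM8A (247 CPM per kilobase), MAGOH (240), SMG1 (63.4), UPF2 (36.1), UPF3B (32.1), SMG5 (31.8), CASC3 (31.4), UPF1 (24.8) and SMG6 (16.2). RBM8A and MAGOH overlapped each other there, as did neighbours from UPF2 down to UPF1. SMG5 stood apart from CASC3 below it in Ctrl and lay among the overlapping genes in shSTAU1, while SMG6 was the lowest in both groups. The place of RBM8A depends on the length used, since per kilobase of all annotated exons it ranked 6 in Ctrl and 4 in shSTAU1, with MAGOH first in both.

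The other genes of the pathway were counted as lists. The shares of all tested genes to set beside them are 2.60% called by edgeR, 10.1% by DESeq2 (5.40% as higher), 2.54% by limma-voom, 28.6% by edgeR when blocked on the replicate number (15.4% as higher) and 24.5% with an unadjusted p under 0.05 in edgeR. Among 11 accessory factors of nonsense-mediated decay none passed with edgeR, DESeq2 or limma-voom, and 4 had an unadjusted p under 0.05 with edgeR. Their median log2 fold change was 0.03. The gene furthest from 0 was RUVBL2, an AAA+ ATPase that acts on SMG1 complexes, with 2717 and 3024 counts in Ctrl and 3901 and 4443 counts in shSTAU1. Its groups were apart, with a log2 fold change of 0.46 (standard error 0.14, edgeR adjusted p = 0.104). When blocked on the replicate number, 3 of the 11 were called higher, RUVBL2 among them (edgeR adjusted p = 0.000914), and 1 lower. This list holds UPF3A, which was given above.

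None of 8 other exon junction subunits and associated factors passed with edgeR or limma-voom, and 3 had an unadjusted p under 0.05 with edgeR. DESeq2 called 2 of them as higher, RNPS1 among them. RNPS1, a splicing regulator that joins the junction complex and can promote decay, had 2584 and 2537 counts in Ctrl and 3722 and 4260 counts in shSTAU1. The knockdown libraries lay far above the controls, with a log2 fold change of 0.56 (standard error 0.13, edgeR adjusted p = 0.0654, DESeq2 adjusted p = 0.0152). When blocked on the replicate number, 3 of the 8 were called, all higher, RNPS1 among them (edgeR adjusted p = 4.28e-05). The median of the list, which holds MAGOHB and UPF3A, was 0.06.

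Of 7 termination and cap-binding factors 5 were tested and 2 had no read. Whether the exome libraries and the counting covered those 2 is not given in the sources used here. None of the 5 passed with edgeR, DESeq2 or limma-voom, and 1 had an unadjusted p under 0.05 with edgeR. All 5 had a log2 fold change above 0 (0.20 to 0.38), with a median of 0.24. ETF1, the release factor that reads stop codons, was the furthest from 0, with 4154 and 4359 counts in Ctrl and 5017 and 6694 counts in shSTAU1 (log2 fold change 0.38, standard error 0.16, edgeR adjusted p = 0.198). It was the 1 gene of this list called when blocked on the replicate number (edgeR adjusted p = 0.00800).

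Of 8 decapping and exonuclease factors 7 were tested and 1 had no read, and whether it was covered is likewise not given. None passed with edgeR or limma-voom, 1 had an unadjusted p under 0.05 with edgeR, and DESeq2 called 1 as higher. This was DCP1A, an activator of decapping, with 1622 and 1376 counts in Ctrl and 2402 and 2613 counts in shSTAU1. Both knockdown libraries stood well above the controls, with a log2 fold change of 0.66 (standard error 0.14, edgeR adjusted p = 0.0568, DESeq2 adjusted p = 0.00565). Blocking on the replicate number gave 2 of the 7 called, both higher, DCP1A among them (edgeR adjusted p = 3.17e-06), and DCP1A also passed with the length and GC correction (edgeR adjusted p = 0.0447). The median of the list was 0.02.

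Among 11 RNAs known to be degraded by nonsense-mediated decay, none passed with edgeR, DESeq2 or limma-voom, and 5 had an unadjusted p under 0.05 with edgeR. Their median log2 fold change was -0.45, with 9 below 0 and 2 above. The noncoding RNAs of the list, GAS5, ZFAS1, SNHG1 and SNHG12, were all below 0. ZFAS1 had 58 to 80 counts per library and SNHG12 had 28 to 47. How well the exome libraries captured noncoding RNAs was not tested. The groups were apart for 10 of the 11, 9 of them lower in shSTAU1, beside 56.6% of all tested genes for either direction and 28.0% for lower. ATF3, a stress-induced transcription factor, was the furthest from 0, with 291 and 174 counts in Ctrl and 111 and 140 counts in shSTAU1. Its control libraries differed widely from each other, and its log2 fold change was -0.97 (standard error 0.32, edgeR adjusted p = 0.121). The median of this list ran from -0.50 to -0.45 over the settings that kept all libraries and from -0.51 to -0.38 with 1 library left out. Blocked on the replicate number, 5 of the 11 passed, 4 lower and 1 higher, against 13.1% and 15.4% of all tested genes.

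**Figure D4:**
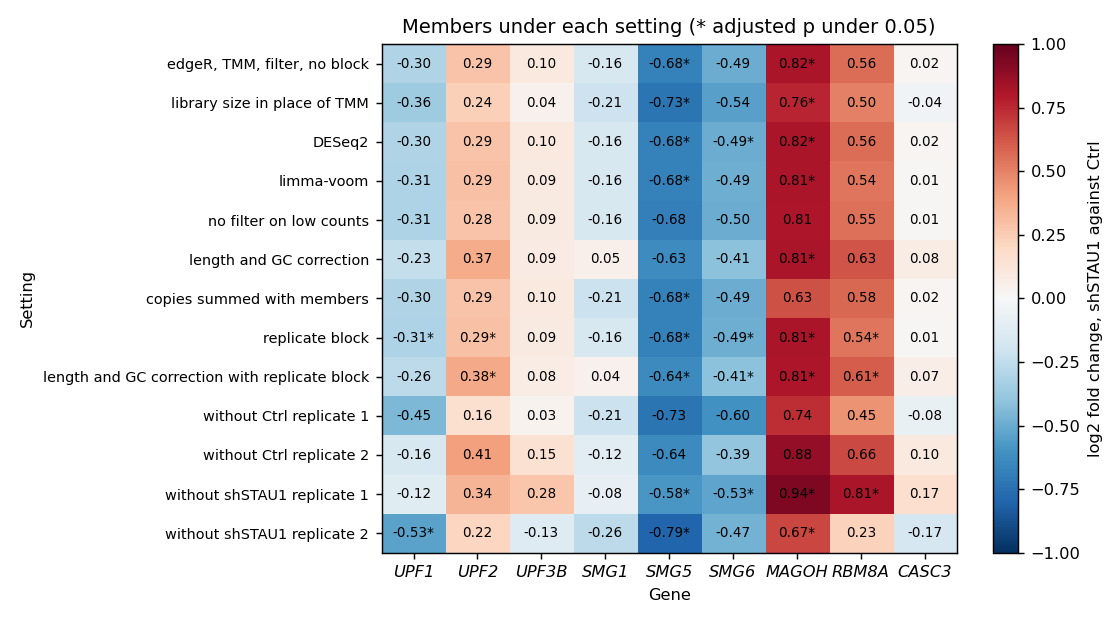
Log2 fold change of shSTAU1 against Ctrl for the 9 genes (columns) under each setting (rows), with red for higher and blue for lower in shSTAU1 and an asterisk for an adjusted p under 0.05. MAGOH stays between 0.63 and 0.94 and SMG5 between -0.79 and -0.58 over the settings shown, while SMG1, UPF3B and CASC3 change sign in some.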

How the data were processed

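RNA-sequencing of 2 Ctrl and 2 shSTAU1 libraries was used. The authors deposited raw gene counts in whole numbers. The submitters' processing notes name Partek and hg38, and the aligner, counting program, strand setting and annotation release are not given in the sources used here. Of the 67008 identifiers, 58516 matched GENCODE 29 (GRCh38) and held 99.9% of the counts.

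Tests used edgeR 4.0.16 in R 4.3.3 (filterByExpr with a count minimum of 10, TMM, quasi-likelihood test on group alone, Benjamini-Hochberg adjustment at 0.05). The 14303 genes left held 99.9% of the counts, and the biological coefficient of variation was 19.2%. Precision rests on totals of 32206655 to 36301574 counts. Permuting 2 libraries against 2 cannot give a 2-sided p below 0.333. The study states no test for this experiment.

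Alternatives were DESeq2 1.42.0, limma-voom (limma 3.58.1), library size for scaling, testing every gene with a read, a replicate block, a per-library correction for transcript length and GC content (mgcv 1.9.3, 99.0% of tested genes) with and without that block, a threshold of 0.10, a 1.5-fold change at an unadjusted p under 0.05, leaving out each library, and summing SMG1, MAGOH and RBM8A with their copies. Leaving out libraries for the shares was added after seeing the data. Models were tested on simulated counts. Sequences were read with Python 3.11.15.

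The genes, lists and alternatives were chosen with earlier results of these data known. Named are the 9 genes, STAU1, STAU2, the paralogs and pseudogenes, and from each other list every gene under the threshold and the one of largest absolute log2 fold change. Overlapping genes, marker genes and the noncoding RNAs degraded by the pathway are named where they touch a result. Some items that this rule covers are not reported here.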

Additional observations from a re-analysis of the deposited data

How the results depend on the processing

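STAU1 kept its direction and its side of the threshold under every alternative, with log2 fold changes from -2.64 to -2.54. The number of genes called was 372 (43.3% of them higher) and was 404 (32.7%) with library size in place of TMM. It was 1449 (53.4%) with DESeq2, 11 (18.2%) without a filter on low counts, 1585 at an adjusted p under 0.10, 2098 by a 1.5-fold change at an unadjusted p under 0.05, and 366 (53.6%) after correcting for length and GC content. Leaving out 1 library gave 214 to 2625 genes, with 214 without Ctrl replicate 1, 226 without Ctrl replicate 2, 2625 without shSTAU1 replicate 1 and 1734 without shSTAU1 replicate 2. In these fits the lone library is assumed to vary like the other group. Of the 9 genes, 2 were called (2.60% of all tested genes), 3 with DESeq2 (10.1%) and 2 with limma-voom (2.54%). The number was 1 with the length and GC correction, where edgeR called 366 of 14159 tested genes. It was 1 with copies summed (369 of 14294 tested genes) and 0 without a filter (11 of 24804). Leaving out 1 library gave 0 to 4, with 0 without either Ctrl library (edgeR, 3 at an unadjusted p under 0.05 in each), 4 without shSTAU1 replicate 1 and 3 without shSTAU1 replicate 2. Why the calls moved was not tested.

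A replicate block gave 4087 of 14303 tested genes called (54.0% of them higher), 6 of the 9 among them. Together with the correction for length and GC content it gave 3565 of 14159 (62.2% of them higher). Of the 9 genes, 5 were among these, with UPF1 the one lost. The pairing rests on the numbers alone. Deviations of same-numbered libraries from their group means correlated at 0.27 over all tested genes and at 0.59 over the 4791 genes above a log2 CPM of 5, from only 2 pairs. A call without the block and none with it did not occur among the 9.

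Log2 fold changes turned sign for genes not past the threshold. Scaling by library size gave CASC3 -0.036, UPF3A -0.022 and STAU2 -0.041. The correction for length and GC content gave SMG1 0.048, and with the block added 0.045. With 1 library left out the values ran from -0.17 to 0.17 for CASC3, from -0.13 to 0.28 for UPF3B, from -0.066 to 0.12 for UPF3A, from -0.12 to 0.12 for STAU2, from -0.54 to 0.0019 for MAGOHB, from -0.099 to 0.29 for SMG1P1 and from -0.61 to 0.28 for SMG1P7. Of 120 values of the 9 genes over the alternatives, 94 kept sign and side, 12 gained and 8 lost a call, and 6 changed sign. The difference in the MAGOHB share lay between -11.6 and -9.32 percentage points with 1 library left out, in the RBM8B share between 0.807 and 1.42, in the SMG1 pseudogene share between -4.13 and -2.01, and in the UPF3A share between -3.10 and 1.45. The smallest difference that this depth and 2 libraries per group could show was not tested.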
